A study of Homo sapiens with 4 samples.

Results

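The miR-9 family was examined across small RNA libraries of HEK293T cells, a human embryonic kidney line, in which RNA polymerase II (Pol II) relied on a transfected largest subunit. Its members were the 3 loci MIR9-1, MIR9-2 and MIR9-3, found by gene symbol and position among the 7062 small RNA features listed in every library, of which 1871 are microRNA (miRNA) genes. The 2 groups were cells expressing 52X T4A, in which the threonine at position 4 of the 52 heptad repeats of the C-terminal domain is replaced by alanine, and cells expressing 52X WT, with wild-type heptads. All cells received 1.5 μg of plasmid per well by transient transfection and were then held in α-amanitin, a toxin of Pol II, at 2.5 μg/ml for 72 hours, which per the labels removes untransfected cells. Each group had 2 libraries of total RNA, and no untreated or untransfected cells were analysed here. The labels do not say whether the replicates were separate transfections, so the p-values measure the spread between these libraries, which may be technical.

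An miRNA is cut from a hairpin precursor into a duplex, and either arm can be loaded into an Argonaute protein and pair with messenger RNAs through its seed, bases 2 to 8. miR-9 is best known from the brain, where neural progenitors and neurons carry it at high levels. There its arms act on regulators of neural stem cells and on repressors of neuronal genes, among them the repressor REST and its partner CoREST. With miR-124 it takes part in the switch of a chromatin remodeling subunit at neuronal differentiation. HEK293T cells are of kidney origin by label, and the labels name no neural cell.

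The sequences are shown first because they define what reads of the loci have in common. RefSeq (GRCh38.p14) lists the same mature sequence for all 3 loci on each arm, here 5′ to 3′ with the seed in capitals.

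hsa-miR-9-5p: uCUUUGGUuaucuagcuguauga

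hsa-miR-9-3p: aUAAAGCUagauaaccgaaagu

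Among 2351 distinct mature sequences in the RefSeq table, none other had either seed, so no relative outside the 3 loci was added. The hairpins differ outside the arms, and they are shown because a read reaching into those bases is the only kind that can tell the loci apart. In each, the 5p and 3p arms are in capitals.

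MIR9-1: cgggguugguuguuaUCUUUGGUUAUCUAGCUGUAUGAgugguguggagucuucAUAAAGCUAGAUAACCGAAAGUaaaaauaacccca

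MIR9-2: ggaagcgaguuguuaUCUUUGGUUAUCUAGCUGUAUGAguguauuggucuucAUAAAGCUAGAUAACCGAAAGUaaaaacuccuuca

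MIR9-3: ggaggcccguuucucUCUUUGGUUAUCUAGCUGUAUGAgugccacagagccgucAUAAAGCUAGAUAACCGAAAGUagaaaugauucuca

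In a global alignment MIR9-1 and MIR9-2 were identical at 83.1% of aligned positions, MIR9-2 and MIR9-3 at 79.3%, and MIR9-1 and MIR9-3 at 77.8%. The stretch between the arms was 16 bases in MIR9-1, 14 in MIR9-2 and 16 in MIR9-3, and its identity was 75.0% between MIR9-1 and MIR9-2 and 56.2% for either pair with MIR9-3. RNAfold gave minimum free energies of -41.0 kcal/mol for MIR9-1, -39.0 for MIR9-2 and -41.7 for MIR9-3. The predicted folds had 19 base pairs between the arms at every locus. The 3 precursors thus shared both arms and the number of predicted pairs between them, and differed in the loop and the flanks.

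MIR9-1 (ENSG00000207933.3) lies on the minus strand of chromosome 1, positions 156420341 to 156420429, in the deposited tables, whose build is hg38. MIR9-2 (ENSG00000284447.1) lies on the minus strand of chromosome 5, positions 88666853 to 88666939, and MIR9-3 (ENSG00000284329.1) on the plus strand of chromosome 15, positions 89368017 to 89368106. Each position is that of the RefSeq hairpin. No other listed feature lay within 2000 bp of a member on either strand. Each hairpin had a single exact match in the GRCh37 genome, at which the annotation (GENCODE v44lift37) places it inside a long noncoding RNA gene of the same strand. MIR9-1 fell in an exon of 2 and an intron of 78 of the 80 overlapping transcripts of its host gene MIR9-1HG. MIR9-2 fell in an exon of 15 and an intron of 18 of 33 transcripts of LINC00461, and MIR9-3 in an exon of 3 and an intron of 8 of 11 transcripts of MIR9-3HG. The mature 5p and 3p sequences each had 3 exact matches in the whole GRCh37 assembly, on chromosomes 1, 5 and 15, so the genome searched held no further copy of either arm.

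The libraries held between 16180790 and 27370127 counts assigned to features, and miRNA features took from 63.5% to 75.3% of them. Every locus of the cell type marker lists had counts in every library, apart from the blood list, where 4 of 5 did. Presence alone thus does not tell the lists apart. The 5 kidney epithelial loci had a summed level of 1873 to 1899 CPM (counts scaled to a common library size) in 52X T4A. In 52X WT it was 1343 to 1440 CPM. The neural markers miR-124, miR-219a and miR-338 summed to 13.5 and 16.7 CPM in 52X T4A and 17.1 and 21.6 CPM in 52X WT. None of the 6 loci was at 0 over the 4 libraries. These markers do not stand for the wider neural list described below. There MIR218-1 was at 1244 to 2074 CPM and MIR137 at no more than 0.21 CPM. The miR-17-92 genes were taken as markers of proliferating cells. Their summed level was 11094 to 11107 CPM with 52X T4A against 15551 to 15965 CPM with 52X WT. This sum is not particular to these genes, because MIR92A1 held nearly the same counts as MIR92A2, which is not on the list. The pair had a mean of 213726 counts per locus and a gap of at most 0.244% of the mean. Summed levels of the 5 muscle loci were 81.6 to 96.5 CPM with 52X T4A and 30.5 to 33.1 CPM with 52X WT. A read held by several loci of a list enters its sum more than once. MIR1-1 and MIR1-2 of the muscle list differed by at most 0.649% of their mean count. The miR-124 loci of the neural list also had nearly equal counts. The epithelial list summed to 54.8 to 58.3 CPM with 52X T4A against 32.2 to 33.5 CPM with 52X WT, the 2 loci of smooth muscle and fibroblasts to 197 to 256 and 197 to 201 CPM, the blood list to 2.53 and 0.82 to 1.75 CPM, and the liver miRNA miR-122 to 0.25 to 0.95 and 0.48 to 0.62 CPM. The tests covered every locus of the kidney, proliferation and smooth muscle and fibroblast lists, 4 of 5 epithelial, 4 of 6 neural, 4 of 5 muscle and 2 of 5 blood loci, and not miR-122. None of the tested markers was called different, beside 0.135% of all tested features. Groups that did not overlap were common, at 40.1% of all tested features, and the sums themselves were not tested. The part of the markers in the results for miR-9 was not tested.

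The loci were first compared with each other within a library, to ask whether their counts can be read as separate measurements. In 52X T4A replicate 1 the counts were 69412 for MIR9-1, 69414 for MIR9-2 and 69422 for MIR9-3. In 52X T4A replicate 2 they were 133060, 133069 and 133066 in the same order of loci. In 52X WT replicate 1 they were 64805, 64808 and 64809. In each of these libraries the 3 loci held the same count to within 10 reads. In 52X WT replicate 2 the counts were 100352, 100365 and 100371, which is the widest gap, of 19 reads. The gap between the highest and the lowest locus was at most 0.0189% of their mean.

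Had the loci been counted from separate reads, the counting SD of a difference between 2 of them would be 360 to 516 reads. The chi-square of the 3 counts against equality, per degree of freedom, was between 6.7e-05 and 0.00094 in the 4 libraries, where separate reads of equal abundance give a value near 1. The counts thus agreed far more closely than separately drawn reads would. How reads with several matches were treated is not given in the sources used here. The 3 counts are reported as 1 measurement made at 3 places, and they cannot say which gene made the miRNA. Nor do they separate the arms, because the tables list hairpins and not mature sequences.

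**Figure D1:**
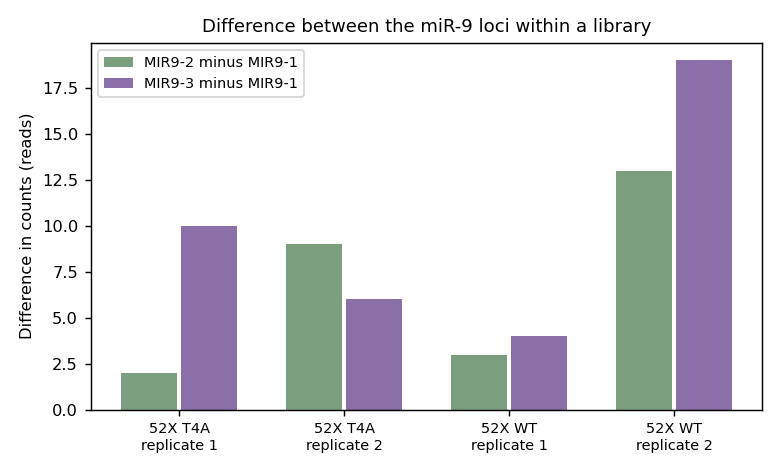
Bars give the count of MIR9-2 (green) and of MIR9-3 (purple) minus that of MIR9-1, in reads, in each of the 4 libraries. All 8 differences are above 0 and none exceeds 19 reads, against counts of 64805 to 133069 per locus.

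What remained between the loci was small. MIR9-1 was the lowest locus in 4 of 4 libraries. MIR9-2 exceeded it by 2, 9, 3 and 13 reads and MIR9-3 by 10, 6, 4 and 19 reads, in the order of the 52X T4A replicates, then those of 52X WT. Over all libraries the totals were 367629 for MIR9-1, 367656 for MIR9-2 and 367668 for MIR9-3, so MIR9-2 held 27 and MIR9-3 held 39 reads more than MIR9-1. These net differences do not give the number of reads particular to a locus, since reads of that kind at several loci cancel. The plot of differences between the loci shows no separation of the groups, with 52X WT replicate 2 the highest and 52X WT replicate 1 among the lowest.

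Other sets of loci with identical mature sequences were looked up for comparison. RefSeq and the deposited tables gave 6 such sets besides miR-9 with a mean of at least 100 counts, and 3 of the 6 had a chi-square per degree of freedom below 0.1 in every library. MIRLET7A1 and MIRLET7A3, a pair of let-7a loci, had values of 0.177 to 0.443. The other set with 3 or more loci, of MIR941 copies, had values of 1217 to 2391 and a gap of up to 53.1% of the mean, so identical mature sequences did not always go with equal counts. In 20 sets that share a single arm, a comparison chosen after the data had been seen, the widest gap in any library had a median of 4.53% of the mean, and 1 of the 20 had a smaller gap than miR-9.

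The level of miR-9 in each library was then compared between the groups. Levels are given in CPM, with library sizes scaled by TMM factors, which are set so that most features match between libraries. MIR9-1 was at 4386 CPM in 52X T4A replicate 1 and 4214 CPM in 52X T4A replicate 2. It was at 4441 CPM in 52X WT replicate 1 and 5331 CPM in 52X WT replicate 2. The 52X WT libraries lay above those of 52X T4A, but 52X WT replicate 1 stood close to the 52X T4A libraries and the distance came mainly from 52X WT replicate 2. Over all tested features, 40.1% had groups that did not overlap in this way and 21.2% did so with 52X T4A lower, and the 3 loci add a single such case because they share their reads.

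The mean of MIR9-1 was 4300 ± 121 CPM with 52X T4A against 4886 ± 629 CPM with 52X WT (SD, n = 2). MIR9-2 was at 4300 ± 121 and 4886 ± 629 CPM, and MIR9-3 at 4300 ± 121 and 4887 ± 630 CPM. In edgeR's quasi-likelihood test the log2 fold change of MIR9-1 (52X T4A over 52X WT) was -0.18 with a standard error (SE) of 0.20, and its Benjamini-Hochberg adjusted p was 0.73 over 1480 tested features. Values of MIR9-2 and MIR9-3 were the same to these digits. None of the 3 loci was called at an adjusted p below 0.05 and a fold change above 1.5, a rule that called 0.135% of tested features. The 95% interval of the log2 fold change ran from -0.63 to 0.26 for each locus, which is a fold of 0.648 to 1.2 of the 52X WT level. A change beyond 1.5-fold thus lay outside the upper bound, and just inside the lower one.

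**Figure D2:**
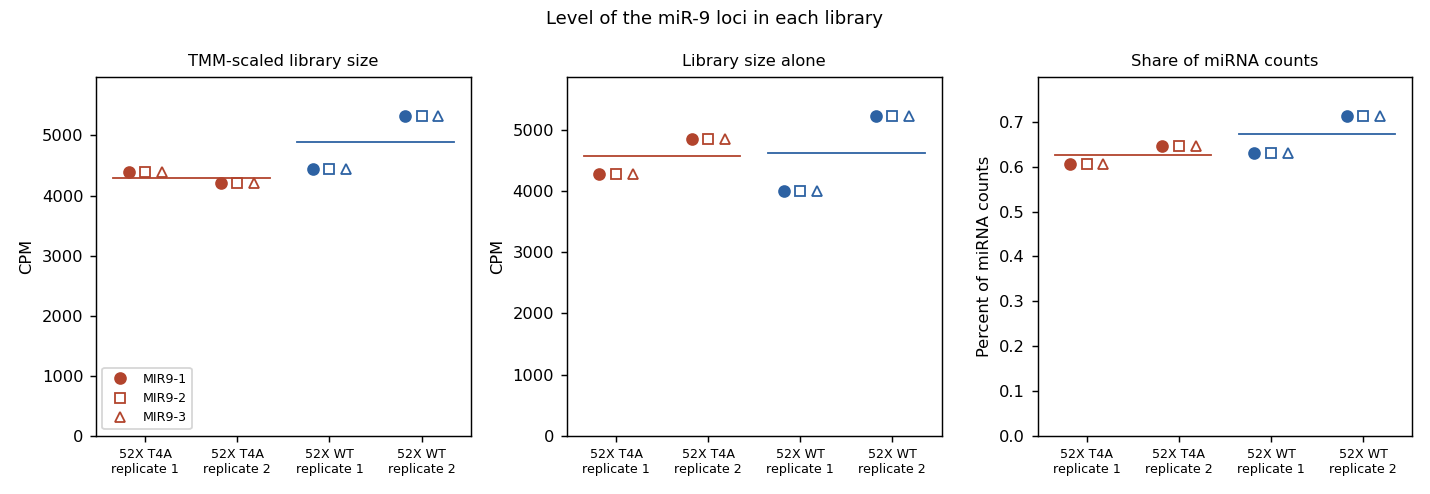
Each point is 1 miR-9 locus in 1 library (red, 52X T4A; blue, 52X WT), and lines are the group means of MIR9-1 over 2 libraries. The panels give CPM with TMM-scaled library sizes, CPM with library size alone and percent of all miRNA counts. The 3 loci lie on top of each other in every library, and the groups overlap in the panels of library size alone and of miRNA counts, but not in the TMM panel.

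The separation of the groups depended on the scaling. With library size alone MIR9-1 was at 4290 and 4862 CPM in the libraries of 52X T4A and at 4002 and 5238 CPM in those of 52X WT, so the 52X T4A libraries fell between those of 52X WT. As a share of all counts MIR9-1 took 0.429% (95% Wilson interval 0.426 to 0.432) in 52X T4A replicate 1 and 0.486% (0.484 to 0.489) in 52X T4A replicate 2. It took 0.400% (0.397 to 0.403) in 52X WT replicate 1 and 0.524% (0.521 to 0.527) in 52X WT replicate 2. These intervals cover counting error only and assume separate reads. The counting SD of a locus was 0.274% to 0.393% of its count, while the replicates of 52X WT differed by 0.26 on the log2 scale and those of 52X T4A by -0.06 (replicate 2 over replicate 1, TMM scaling). The counting SD of a locus was thus smaller than the difference between replicates in either group. The effect of depth on the comparison was not tested.

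Against miRNA features alone, a denominator chosen after the data had been seen, MIR9-1 took 0.605% and 0.646% in the libraries of 52X T4A and 0.630% and 0.714% in those of 52X WT. The group means were 0.625% ± 0.0285 and 0.672% ± 0.0592 (SD, n = 2). The 52X WT replicates had unequal miRNA shares, 63.5% of counts in replicate 1 and 73.4% in replicate 2, and the groups overlapped on this scale too.

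The family was also fitted as 1 feature holding the sum of its loci. The sum had a level of 12902 ± 414 CPM with 52X T4A against 14661 ± 1941 CPM with 52X WT (SD, n = 2), in which a read held by several loci enters more than once. Its fitted difference was -0.18 on the log2 scale (SE 0.19; edgeR, Benjamini-Hochberg adjusted p 0.73), and the interval ran from -0.62 to 0.25. Using the mean of the loci in place of their sum left the log2 fold change at -0.18 (edgeR, adjusted p 0.741). Without 52X WT replicate 1 the log2 fold change was -0.40, and without 52X WT replicate 2 it was -0.04 (edgeR, adjusted p of 0.638 and 0.971). The size of the difference thus rested on which 52X WT library was kept, and in no fit was the sum called.

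**Figure D3:**
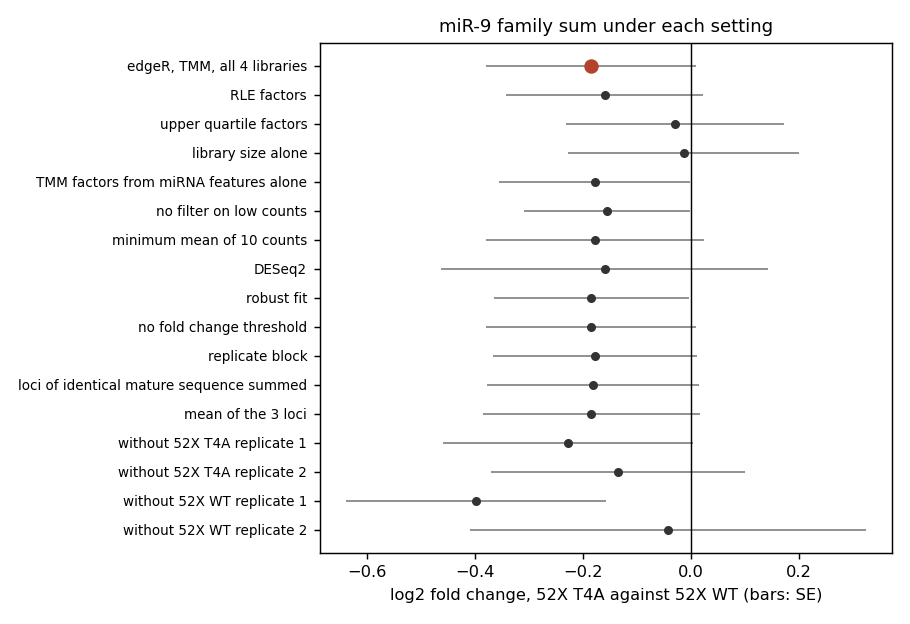
Points are the log2 fold change of the miR-9 family sum, 52X T4A against 52X WT, under each setting, and bars are standard errors. The red point is the edgeR fit with TMM factors on all 4 libraries, at -0.18. All 17 points lie below 0, from -0.40 to -0.01, and none was called.

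Among all tested features the difference of miR-9 was small. The absolute log2 fold change of MIR9-2 exceeded that of 30.6% of the 1480 features, whose median absolute value was 0.35. The median log2 fold change was -0.05 over all tested features and -0.02 over the 621 tested miRNAs. The plot of all tested features places the loci at the abundant end.

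**Figure D4:**
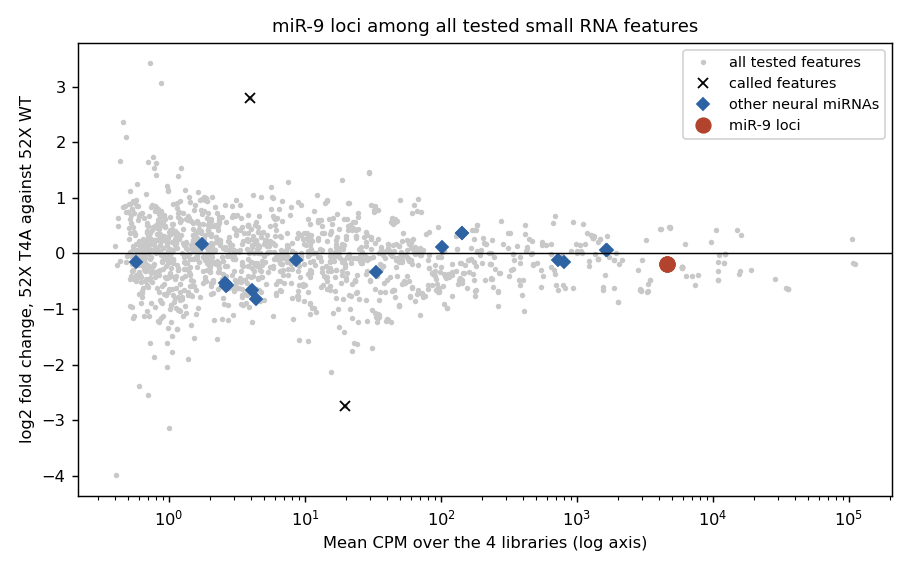
Each grey point is 1 of 1480 tested small RNA features, with its mean CPM over the 4 libraries on a log axis and its log2 fold change (52X T4A against 52X WT). The miR-9 loci, which coincide at -0.18, are red, the 16 other tested neural miRNAs are blue and the 2 called features are crosses.

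For the order of levels, CPM was divided by the listed length of each hairpin. On the scale of CPM per kb, MIR9-2 was at 52796 ± 5764, MIR9-1 at 51606 ± 5632 and MIR9-3 at 51038 ± 5573 (SD over the 4 libraries), ranks 30, 31 and 32 of the 1871 miRNA features. Their order among themselves follows the lengths of 87, 89 and 90 bases and is no difference in reads. The features just above were MIR532 at 53806 ± 6339 and MIRLET7A1 at 60519 ± 12845 CPM per kb, and those just below were MIRLET7F2 at 49612 ± 10008 and MIRLET7F1 at 46680 ± 9518 CPM per kb. Each neighbour differed from each member by less than the neighbour's own SD over libraries. By library the members ranked between 26 and 34, where 1018 to 1134 of the 1871 miRNA features had any count. Copies that share reads take separate ranks, as the members do, so these are not ranks among distinct miRNAs. The log2 fold changes of the let-7 neighbours, loci of a tumor suppressor miRNA family, were above 0, at 0.47 (SE 0.21) for MIRLET7A1, 0.43 (SE 0.21) for MIRLET7F2 and 0.44 (SE 0.21) for MIRLET7F1. That of MIR532 was -0.15 (SE 0.20), and none of the 4 was called (edgeR, adjusted p 0.467 for each let-7 locus and 0.807 for MIR532).

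Features whose pattern over the 4 libraries was nearest to that of the family sum were found by the root mean square difference of centred log2 CPM, over 752 candidates. They were a Y_RNA copy at 0.0352, MIR1180 at 0.044, MIR769 at 0.0446, SNORA75, an H/ACA box snoRNA, at 0.0542 and MIR676 at 0.0547, against a median of 0.318. Their log2 fold changes ran from -0.13 for MIR769 to -0.23 for MIR1180. That these lie near the value of miR-9 follows from the choice by pattern over the same libraries. With 4 libraries, 23 candidates came within 0.1, and these 5 are only the nearest of them.

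The other neural miRNAs were described last, as the company miR-9 keeps in the brain. The list held 22 loci, all with a count in some library, of which 16 were abundant enough to be tested. None was called higher or lower (edgeR, smallest adjusted p 0.467), beside 0.0676% of all tested features called in each direction. At an unadjusted p below 0.05 there was 1 of the 16, MIR138-2, beside 152 of the 1480 tested features, and DESeq2 called none. The log2 fold changes had a median of -0.14, with 6 above and 10 below 0, beside -0.05 over all tested features. The groups did not overlap for 3 of the 16 (18.8%), MIR212, MIR138-1 and MIR138-2, all lower in 52X T4A. Among all tested features 21.2% did so with 52X T4A lower, 18.9% with 52X T4A higher and 40.1% in either direction. Copies of the same miRNA enter these numbers separately, as for the miR-124, miR-128, miR-129, miR-138 and miR-218 loci. The 16 are therefore not independent measurements.

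Loci of miR-124, the miRNA most tied to neuronal commitment, had low counts. MIR124-3 had 23 and 86 counts in the libraries of 52X T4A and 61 and 42 in those of 52X WT, and the groups overlapped. Its log2 fold change was -0.57 (SE 0.45; edgeR, adjusted p 0.628). Per kb of length MIR9-1 was 1696-fold above MIR124-3. MIR124-1 carried nearly the same counts, 23 and 84 against 58 and 41.

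MIR132 and MIR212, whose miRNAs respond to neuronal activity, were at 87.6 to 112 CPM and 26.7 to 39.8 CPM over the 4 libraries. MIR212 had 32.0 and 26.7 CPM in the libraries of 52X T4A and 34.5 and 39.8 CPM in those of 52X WT. The groups did not overlap, but edgeR made no call, at -0.34 on the log2 fold change scale (SE 0.30, adjusted p 0.668). For MIR132 the groups overlapped, with a log2 fold change of 0.12 and a standard error of 0.27.

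Of the miRNAs of neuronal differentiation and synapses, MIR218-1, a motor neuron miRNA, was the most abundant at 15024 CPM per kb. MIR9-1 exceeded it 3.43-fold on that scale, which depends on the listed lengths as well as on the counts. Not divided by length, MIR9-1 was at 4214 to 5331 CPM over the 4 libraries. MIR218-1 was at 2074 and 1300 CPM in 52X T4A and at 1244 and 1992 CPM in 52X WT. Its spread was wider within each group than between them. MIR128-1 had 718 and 811 CPM in 52X T4A and 765 and 930 CPM in 52X WT. MIR129-1 had 181 and 141 CPM in 52X T4A and 108 and 142 CPM in 52X WT, with a log2 fold change of 0.37 and a standard error of 0.28. For MIR128-1 and MIR129-1 the groups overlapped. MIR138-1 and MIR138-2, loci of a miRNA that limits dendritic spine growth, had 45 and 109, and 41 and 118, counts in 52X T4A against 73 and 94, and 84 and 103, in 52X WT. Their log2 fold changes of -0.66 (SE 0.34) and -0.81 (SE 0.36) were not called (edgeR, adjusted p 0.467 for both), and they share a mature arm.

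The loci that follow were low. MIR219A1, of an oligodendrocyte miRNA, was at 7.70 to 9.40 CPM, and MIR326 and MIR134 were at 0.41 to 2.65 CPM. MIR137, MIR153-1, MIR153-2, MIR383, MIR219A2 and MIR338 were not tested and had at most 46 counts over the 4 libraries. Among the neural miRNAs listed, miR-9 was thus the most abundant per length in these cells, and no listed locus exceeded it.

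**Figure D5:**
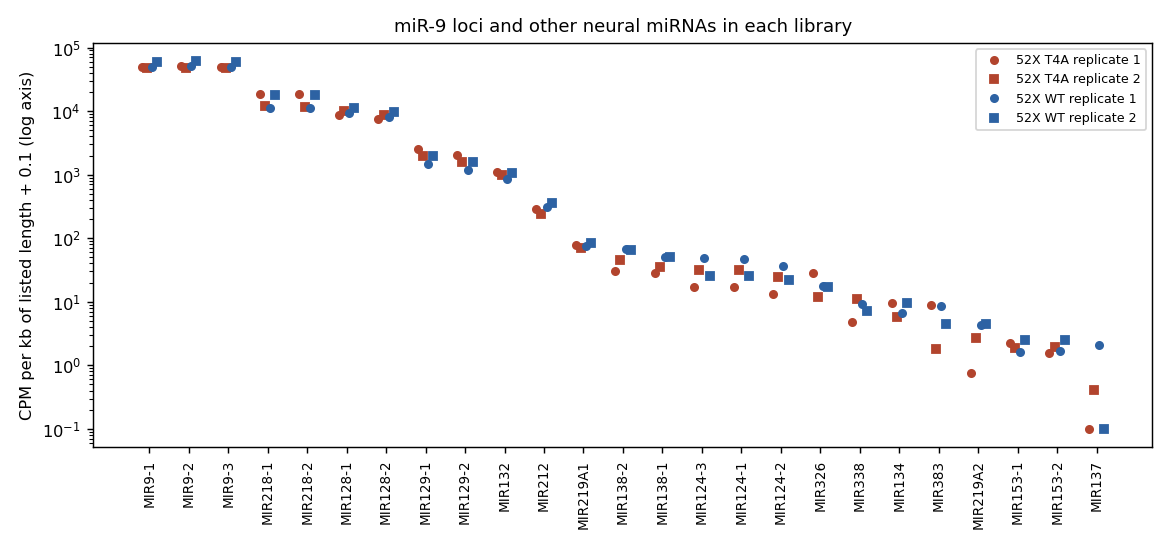
Each point is 1 library (red, 52X T4A; blue, 52X WT; circle, replicate 1; square, replicate 2), with CPM per kb of listed length plus 0.1 on a log axis. Loci run from the miR-9 members on the left to MIR137 on the right by mean level. The miR-9 points lie from 46828 to 61281 and the miR-124 points from 13.3 to 48.0.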

How the data were processed

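Small RNA libraries of 2 groups with 2 samples each were compared. The authors deposited raw read counts per feature, with no normalization, and the submitters' processing notes name cutadapt 4.6, Bowtie2 2.3.5.1, featureCounts 1.5.0 and hg38. The annotation and the handling of reads with several matches are not given in the sources used here. Groups came from the sample titles. Names came from an identical RefSeq hairpin position for 1501 features, from GENCODE by Ensembl identifier for 4658 and from another RefSeq position for 329.

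Counts of the whole table were fitted in edgeR 4.0.16 (quasi-likelihood F test) in R 4.3.3, after filterByExpr at a minimum count of 10 and TMM scaling, with Benjamini-Hochberg adjustment. The standard error is the size of the log2 fold change over the square root of F, and intervals used the t quantile at the fit's degrees of freedom. All reported values come from the deposited counts, and the fitting code was separately tested on simulated data with known changes. Alternatives were RLE, upper quartile, library size and miRNA-only factors, other filters, DESeq2 1.42.0, a robust fit, a replicate block, summed copies and removal of each library. Precursors were folded with RNAfold of ViennaRNA 2.7.2 and aligned with Biopython 1.88.

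The members and lists were chosen with earlier results of these data known. Features named were the 3 loci, their sum, features within 2000 bp, seed relatives, 2 neighbours on each side by level, the 5 nearest patterns, the neural list, the marker lists and sets of identical copies with 3 or more loci, of which only MIR941 was found. MIRLET7A1 with MIRLET7A3 was named after its values were seen.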

Additional observations from a re-analysis of the deposited data

How the results depend on the processing

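The log2 fold changes of MIR9-1, MIR9-2, MIR9-3 and their sum stayed below 0 and uncalled under every alternative run. With all 4 libraries they ran from -0.19 to -0.01, nearest to 0 with library size alone (-0.01), and with a library left out from -0.41 to -0.04. With the replicate number as a block the sum was at -0.18 (edgeR, adjusted p 0.777). No label ties same-numbered libraries to a shared batch or day, and the deviations of same-numbered libraries correlated at 0.095 across 1480 features. The median of all tested features moved from -0.05 to 0.13 with upper quartile factors and to 0.14 with library size alone, and relative to it the sum was at -0.14 with TMM and -0.15 under either of these. None of the neural loci was called under any alternative. The mean level of MIR9-1 in 52X T4A moved from 4300 to 4576 CPM with library size alone, beyond the replicate SD, as did MIR9-2 and MIR9-3. The number of called features, 2 in all, was 9 with library size alone, 29 without a filter, 30 with DESeq2, 18 with the replicate block and 0 with miRNA-only factors, where 143 features had an unadjusted p below 0.05. It ran from 4 to 218 when a library was left out, with 218 without 52X WT replicate 2, 35 without 52X WT replicate 1, 6 without 52X T4A replicate 1 and 4 without 52X T4A replicate 2. In these fits the lone sample is assumed to vary like the other group. The cause of these shifts was not tested. The 6 neural loci that were not tested had at most 46 counts over the 4 libraries. The effect of depth on any of these values was not tested.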
